A study of Danio rerio with 20 samples.

Results

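Among the 10 neurons of the zebrafish Dc region whose calcium activity was non-synchronized after conspecific alarm substance (CAS), 5 carried more mRNA of the GABA genes gad1b, gad2 and slc32a1 than of the vesicular glutamate transporter genes slc17a7a, slc17a6a and slc17a6b, and 5 carried more of the latter. These 10 cells, of 20 sequenced in all, were compared gene by gene. The sides were chosen by these measured values alone: a cell was placed on the GABA side when the summed level of the former genes, as counts scaled to the library total (CPM, 1 per 1000000 counts), exceeded that of the latter, and on the glutamate side in the reverse case. The GABA-rich cells were 5, 6, 13, 18 and 22, and the glutamate-rich cells were 10, 10-1, 15, 17 and 19-1, by the numbers of their labels.

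Neurons of the central zone of the dorsal pallium (Dc) were imaged by two-photon microscopy in the line Tg(HuC:H2B-GCaMP6f), in which the HuC promoter drives a nuclear calcium indicator in neurons of the whole brain. The fish were 4 to 5 weeks old and had received CAS, a skin extract that signals danger, and neurons with synchronized or non-synchronized activity were picked with a glass pipette, 10 of each. All cells came from treated fish, so that no untreated cell stands beside them. No label names the fish a cell came from, and each side was therefore taken as 1 sample: the SD given below is a spread between cells, and no p-value is given for any difference between the sides.

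In the forebrain, GABA is made by glutamate decarboxylases (gad1b and gad2), and loaded into vesicles by the transporter slc32a1, while glutamate is loaded by the slc17a6 and slc17a7 transporters. GABAergic neurons of the telencephalon arise in the subpallium under transcription factors of the Dlx family, and excitatory neurons of the pallium under tbr1, eomes and neurod factors. In mammals, GABAergic interneurons are further divided by peptides such as somatostatin, neuropeptide Y and enkephalin and by calcium-binding proteins.

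The genes that defined the sides are given as a description only. In cells 5, 6, 13, 18 and 22, in this order here and below, the GABA sum was 4424, 2990, 750, 3030 and 579 CPM. In the same cells the glutamate transporter sum was 330, 13.6, 325, 0 and 60.1 CPM. GABA-rich cells were thus not all free of glutamate transporter mRNA: the sums of cells 5 and 13 lay within the range of the glutamate-rich cells, and cell 18 had 0 counts.

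In cells 10, 10-1, 15, 17 and 19-1, again in this order throughout, the GABA sum was 2.86, 0.414, 3.54, 59.2 and 1.13 CPM. Their glutamate transporter sum was 67.4, 312, 695, 88.4 and 273 CPM. Cell 17 lay nearest to equality, with the larger sum 1.49-fold above the smaller, and cell 13 was the nearest on the GABA side at 2.31-fold. The side of cell 17 turned with slc17a6a or with slc17a6b left out of the rule, that of cell 10 with slc17a6a left out, and that of cell 13 with gad2 left out.

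gad2 gave most of the GABA sum in CPM, at 3931, 2560, 567, 2246 and 343 CPM on the GABA side, against 0.318, 0.414, 0, 55.3 and 0.376 CPM on the glutamate side. The log2 ratio of the gad2 side means was 7.30 and became 10.56 without cell 17, which held most of the gad2 counts of its side. The vesicular transporter slc32a1 was at 435, 313, 121, 759 and 126 CPM, and among the glutamate-rich cells 2 counts were found, both in cell 19-1. Cell 17 had 0 counts of slc32a1. On the glutamate side most of the transporter sum in CPM was slc17a6a, at 67.4, 226, 582, 56.8 and 216 CPM, whereas slc17a7a was counted in cell 10-1 alone of these, at 60.0 CPM, and in cell 5 of the GABA side at 132 CPM.

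**Figure D1:**
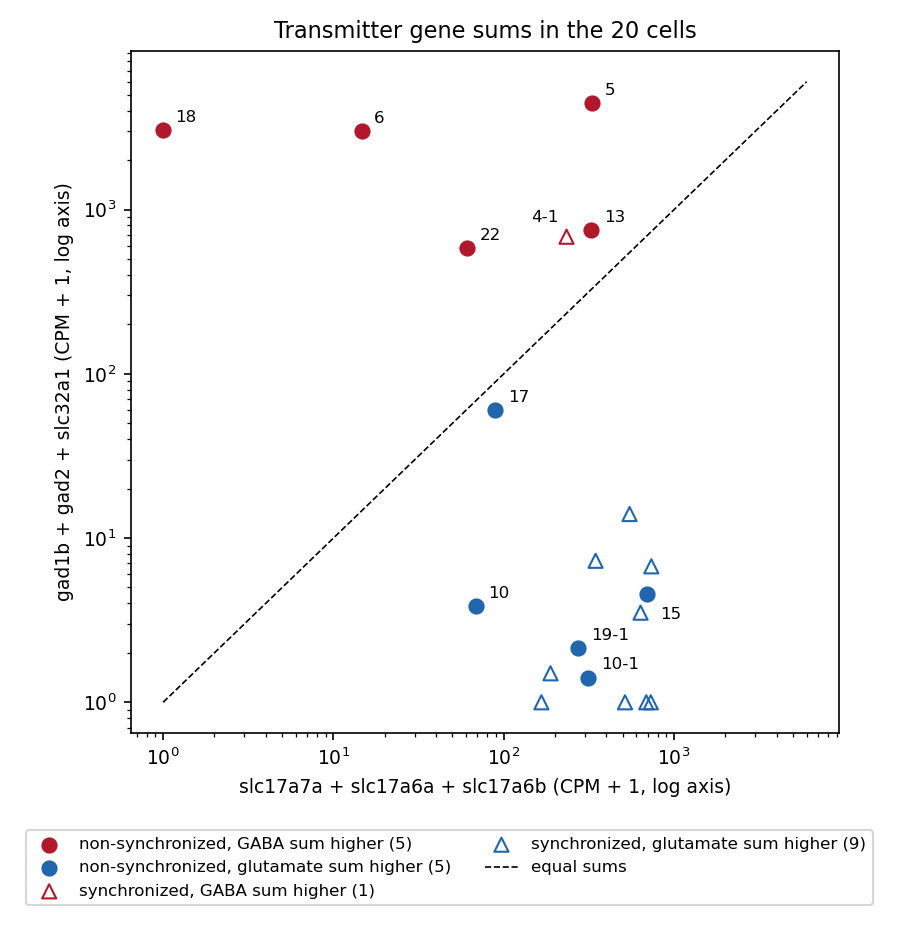
Summed CPM of gad1b, gad2 and slc32a1 (y axis) against that of slc17a7a, slc17a6a and slc17a6b (x axis), both plus 1 CPM on log axes, for all 20 cells. Filled circles are the non-synchronized cells with their label numbers, open triangles the synchronized cells, and the dashed line marks equal sums; cell 17 (59.2 against 88.4 CPM) lies closest to it.

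The 10 libraries held between 1131532 and 3144155 counts and between 5588 and 9925 detected genes, so that 1 count was worth between 0.318 and 0.884 CPM. A count of 0 over the 5 libraries of a side allows a summed level of up to 0.282 CPM on the glutamate side and 0.275 CPM on the GABA side (3 counts, counting error only). Mitochondrial genes took 13.7% of the counts in cell 17 and between 2.74% and 5.66% in the others. The neuronal gene elavl3, which encodes HuC, was counted in every cell, at 821 to 1280 CPM on the GABA side and 633 to 2001 CPM on the glutamate side. Genes of other cell types were also present. Red blood cell genes, mainly the globins hbba1 and hbaa1, summed to 6757 and 16053 CPM in cells 5 and 6 and to 1236 CPM in cell 18, where the globin gene hbae5 gave most of it, against 0 to 305 CPM in the 5 glutamate-rich cells. Microglia and leukocyte genes such as apoc1, apoeb and cd74a summed to 4110, 3390 and 1768 CPM in cells 13, 22 and 19-1 and to at most 106 CPM in the other cells. Of the 19 measured genes of the latter list, 11 were counted in cell 13, 13 in cell 22 and 10 in cell 19-1. Of the 14 measured red blood cell genes, 13 had the higher mean on the GABA side, against 53.1% of all genes with at least 1 count in the 10 cells. The part of these cell types in the differences between the sides was not tested, and the main counts and medians are also given without the cells concerned.

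**Figure D2:**
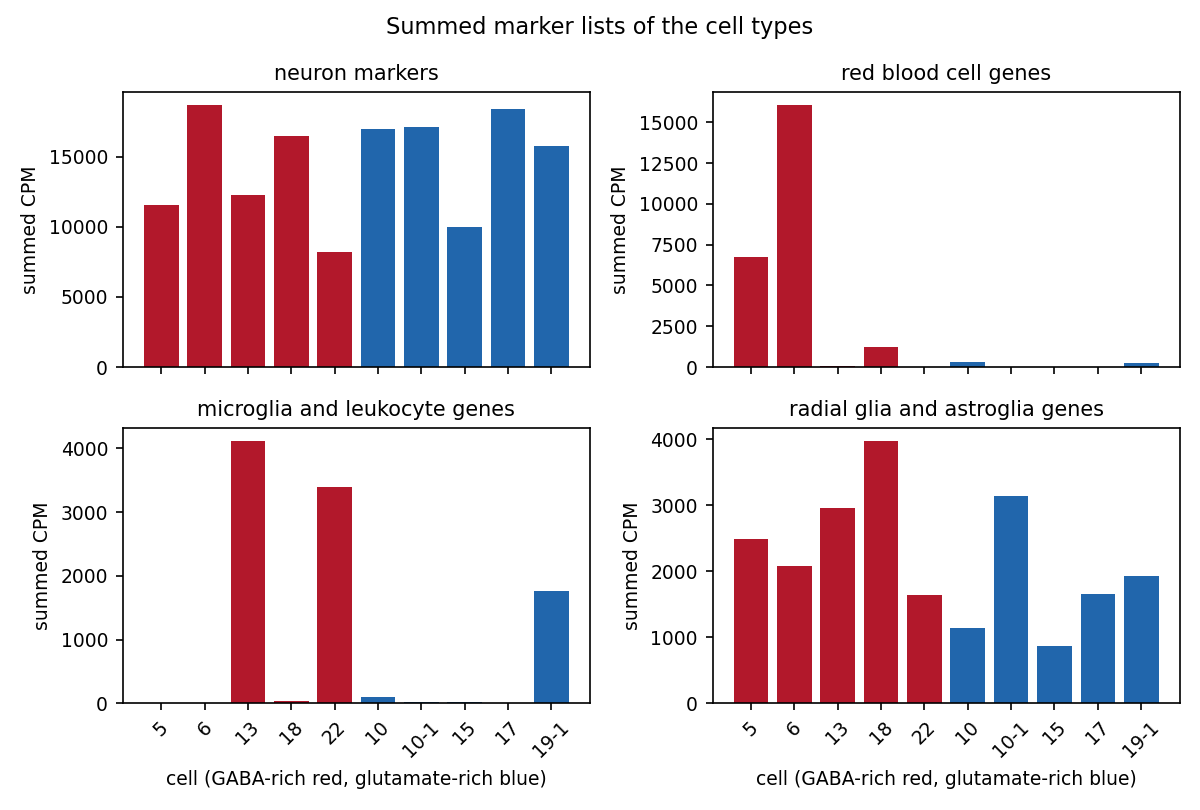
Summed CPM of the marker lists of 4 cell types (y axes, linear from 0, each with its own scale) in the 10 non-synchronized cells (x axis), GABA-rich in red and glutamate-rich in blue. Neuron markers were present in all cells, red blood cell genes were highest in cells 5 and 6 (6757 and 16053 CPM), and microglia and leukocyte genes in cells 13, 22 and 19-1 (4110, 3390 and 1768 CPM).

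Across the transcriptome, 8926 genes other than the rule genes reached a mean of 10 CPM over the 10 cells, of which 51.2% had the higher mean on the GABA side. Of these, 1531 (17.2%) had a mean at least 4-fold higher on the GABA side and 1189 (13.3%) at least 4-fold higher on the glutamate side, after 1 CPM was added to each mean. Which side had more such genes changed with the cells left out: the counts were 1349 and 1593 without cells 5 and 6, and 1564 and 2001 without cells 13, 22 and 19-1. Leaving out any 1 GABA-rich cell lowered the former count and raised the latter, and leaving out any 1 glutamate-rich cell raised the former. These settings leave unequal numbers of cells on the sides, and the part of that number was not tested. A stricter description is that all 5 cells of one side lay above all 5 of the other, which held for 50 genes (0.56%) with the GABA side higher and for 28 (0.314%) with the glutamate side higher. These shares are the background against which each gene group is read. Over the 16407 genes with at least 1 count in the 10 cells, which is the set from which list members were counted, 17.3% were at least 4-fold higher on the GABA side and 13.2% on the glutamate side, and the mean was higher on the GABA side for 53.1%. Over the same genes the sides did not overlap for 0.329% with the GABA side higher and for 0.177% with the glutamate side higher.

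Transcription factors of the GABAergic lineage, the group that in vertebrates sets up GABAergic identity in the subpallium, were the gene list with the most members apart. Of 50 listed symbols, 11 were not found in the deposited table, 38 genes were measured and 25 reached a mean of 10 CPM. The mean was higher on the GABA side for 31 of the 38, against 53.1% of all measured genes, and on the glutamate side for 7. A 4-fold higher mean on the GABA side was found for 22 members (57.9%, against 17.3% of all measured genes) and on the glutamate side for 3 (7.89%, against 13.2%). The latter 3, of which 2 reached a mean of 10 CPM, are not described below. Lists of other cell types also had large shares at least 4-fold higher on the GABA side. These were 10 of 14 red blood cell genes (71.4%) and 5 of 11 oligodendrocyte genes (45.5%). For 7 of the 38, dlx1a, dlx2a, dlx5a, dlx6a, sp9, satb1b and zfhx4, every GABA-rich cell was above every glutamate-rich cell. This held for 0.329% of all measured genes. The reverse held for 0 members, against 0.177% of all measured genes. The median difference in mean log2(CPM + 10), GABA side minus glutamate side, was 0.59 over the list and 0.02 over all measured genes. It was 0.85 without cells 5 and 6, 0.84 without cells 13, 22 and 19-1 and 0.48 without cells 10-1 and 19-1. With medians over cells in place of means it was 0.03.

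Of the lineage factors apart, dlx5a, dlx1a and dlx6a had the highest means on the GABA side. In its lowest GABA-rich cell each was below sp9 and satb1b in theirs. dlx5a was at 516, 1193, 7.08, 807 and 498 CPM on the GABA side and had 0 counts in all 5 glutamate-rich cells, and its summed level was at least 2126-fold higher on the GABA side when the glutamate side was set at a floor of 3 counts over its 5 libraries. Its neighbour in the family, dlx6a, was at 288, 503, 119, 416 and 5.52 CPM, again with 0 counts on the other side, at least 963-fold higher. dlx1a was at 900, 173, 315, 469 and 7.72 CPM, and 1 count was found among the glutamate-rich cells, in cell 19-1. That each of the 5 GABA-rich cells carried dlx1a, dlx5a and dlx6a follows from the sides being apart. Cell 22 was lowest of them for dlx1a and dlx6a and cell 13 for dlx5a.

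The related dlx2a was at 0.343, 187, 55.8, 68.5 and 3.86 CPM and had 0 counts on the glutamate side, so that its separation rested on 1 count in cell 5. Its paralogue dlx2b was not apart: it was at 0, 274, 0.443, 250 and 45.8 CPM on the GABA side and at 32.4 CPM in cell 10 of the glutamate side, with 0 counts in the other 4 cells. The log2 ratio of dlx2b was 3.94 with all cells and 6.85 without cell 10.

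Other factors of the list were shared by all GABA-rich cells. sp9, a zinc finger factor of subpallial GABAergic neurons in the mouse, was at 330, 189, 65.5, 40.9 and 66.2 CPM with 0 counts on the glutamate side, at least 571-fold higher. satb1b, whose mouse counterpart acts in the maturation of somatostatin interneurons, was at 20.9, 77.7, 167, 134 and 120 CPM with 0 counts on the glutamate side, at least 338-fold higher. Both varied less between the GABA-rich cells, as highest over lowest, than dlx1a, dlx5a and dlx6a. sox6 was at 312, 561, 35.9, 86.1 and 23.7 CPM, and of the glutamate-rich cells only cell 15 carried it, at 30.0 CPM, so that the sides overlapped through this cell; its log2 ratio was 4.87 and became 7.68 without cell 15.

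The remaining members divided the GABA-rich cells. etv1 was at 1410, 2905, 34.1, 174 and 0 CPM, against 53.8 and 28.4 CPM in cells 10-1 and 17 and 0 in the other glutamate-rich cells. In contrast, meis2a (ENSDARG00000098240) was at 0, 0, 106, 62.8 and 221 CPM and arxa at 0, 0, 1.77, 61.4 and 73.9 CPM, both with 0 counts on the glutamate side. zfhx4 followed the latter order, at 0.343, 1.6, 29.2, 139 and 148 CPM, with 0 counts on the glutamate side. Its separation thus rested on 0.343 CPM in cell 5, the same level as that of dlx2a in this cell. Cells 5 and 6 were thus highest for etv1 and at or near 0 for meis2a, arxa and zfhx4, whereas cells 18 and 22 were highest for arxa and zfhx4.

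Among factors that act in the medial ganglionic eminence of mammals, lhx6 was at 0.687, 0, 9.29, 326 and 21 CPM and nkx2.1 at 120, 50.5, 0, 12 and 33.7 CPM, and neither had a count on the glutamate side. The lhx6 level came mainly from cell 18, without which its log2 ratio fell from 6.18 to 3.13. six3b was counted in cell 13 alone, at 244 CPM. pbx3b was at 0, 0, 58.9, 159 and 599 CPM on the GABA side and at 102, 26.5, 3.54, 0 and 0.376 CPM on the glutamate side, so that the sides overlapped, and its log2 ratio of 2.58 became 1.01 without cell 22. tshz1 was shared by both sides, at 116, 1.2, 0, 431 and 77.8 CPM and at 410, 0, 304, 457 and 0 CPM.

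**Figure D3:**
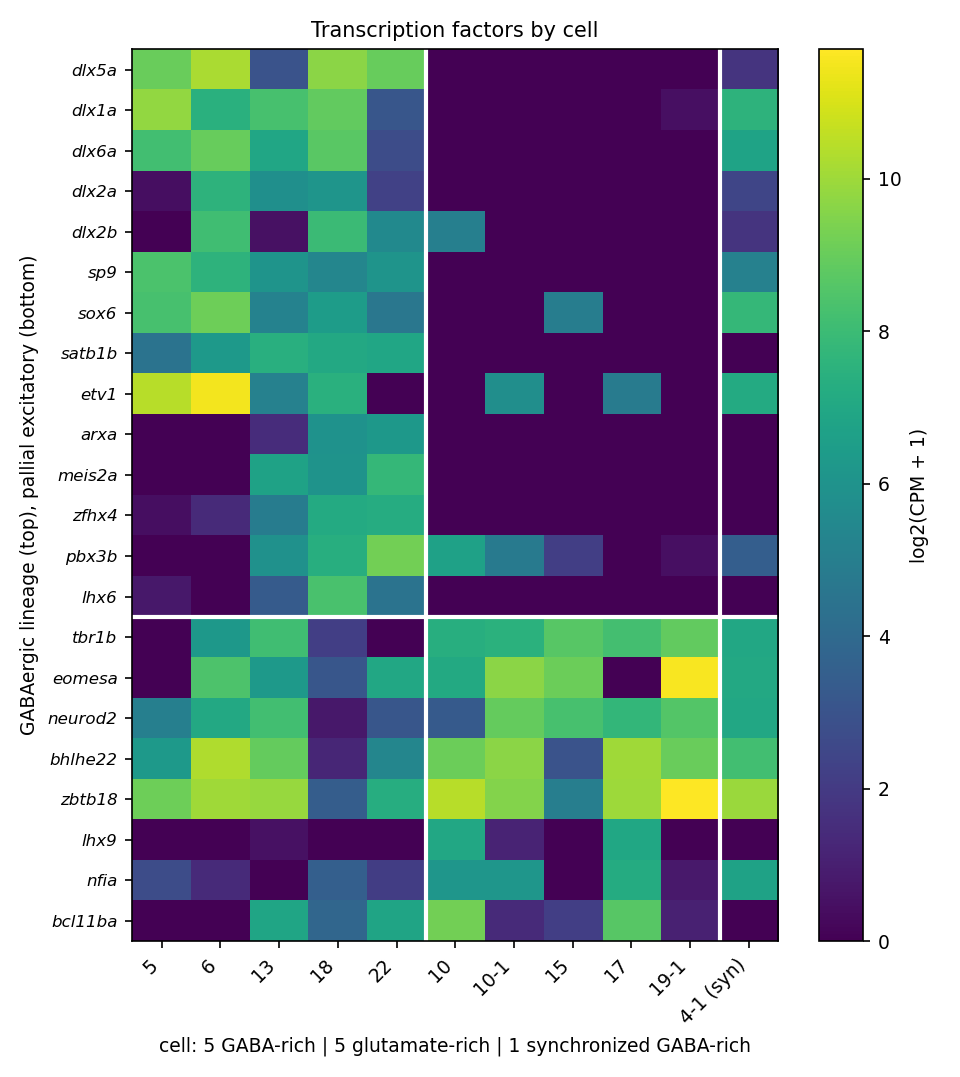
Levels of 22 transcription factors as log2(CPM + 1) (colour) in the 5 GABA-rich cells, the 5 glutamate-rich cells and the GABA-rich synchronized cell 4-1 (columns), with members of the GABAergic lineage list above the horizontal line and of the pallial excitatory list below it. The rows dlx5a, dlx6a, sp9 and satb1b are at 0 in all 5 glutamate-rich cells, whereas the pallial factors zbtb18 and bhlhe22 are present on both sides. All factors shown above the line had the higher mean on the GABA side and all below it on the glutamate side. Members of either list with the other direction are not shown.

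Pallial excitatory transcription factors gave the opposite direction, with no member apart. Of 39 listed symbols, 9 were not found, 29 genes were measured and 19 reached 10 CPM. The mean was higher on the glutamate side for 22 of the 29 and on the GABA side for 7, whereas it was higher on the GABA side for 53.1% of all measured genes. A 4-fold higher mean on the glutamate side held for 8 members (27.6%, against 13.2% of all measured genes and 31.8% of heat shock genes). On the GABA side it was found for 4 (13.8%, against 17.3%), of which 1 reached a mean of 10 CPM. None of these 4 is described below, where all pallial factors named had the higher mean on the glutamate side. The median difference was -0.60, and it was -0.73 without cells 5 and 6 and -0.72 without cells 13, 22 and 19-1. It was smaller in size without cell 18, at -0.29, and without cells 10-1 and 19-1, at -0.27, and it was 0.00 with medians over cells.

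The T-box factor tbr1b, which marks postmitotic glutamatergic neurons of the pallium, came closest to separating the sides. It was at 160, 175, 399, 293 and 472 CPM on the glutamate side and at 0, 74.9, 278, 3.53 and 0 CPM on the GABA side. Only cell 13, which also had the smallest margin of the GABA-rich cells in the rule, overlapped the glutamate-rich cells. The mean of tbr1b was 4.2-fold higher on the glutamate side, and its log2 ratio of -2.06 became -3.87 without cell 13.

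eomesa, a second T-box factor of the pallium, was at 135, 807, 539, 0 and 3104 CPM in the glutamate-rich cells and at 0, 339, 79.2, 7.76 and 129 CPM in the GABA-rich cells. Cell 17 had no count of it, and GABA-rich cell 6 was above glutamate-rich cell 10. neurod2 was at 8.91, 488, 313, 211 and 378 CPM against 32.3, 132, 282, 0.706 and 7.72 CPM. Here cell 10 was near the low levels of GABA-rich cells 18 and 22. bhlhe22 and zbtb18, which in the mouse act in cortical projection neurons, did not follow the sides. bhlhe22 was at 539, 816, 7.07, 1055 and 516 CPM on the glutamate side, and at 1267 and 481 CPM in GABA-rich cells 6 and 13. zbtb18 was lowest in cell 18 (9.88 CPM) and cell 15 (30.9 CPM), 1 on each side, and between 156 and 3322 CPM in the other 8 cells. Pallial factors were therefore counted in cells with gad2 as well, mainly in cells 6 and 13.

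Within the glutamate side, some factors were limited to a pair of cells. The LIM-homeobox gene lhx9 was at 129 and 124 CPM in cells 10 and 17, at 1.24 CPM in cell 10-1 and at 0 in cells 15 and 19-1, and 1 count was found on the GABA side. bcl11ba was at 582 and 402 CPM in the same cells and at most 3.54 CPM in the other glutamate-rich cells, but it was also at 116 and 112 CPM in GABA-rich cells 13 and 22. nfia was at 69.7, 69.5, 0, 144 and 0.751 CPM on the glutamate side and at most 10.6 CPM on the GABA side. Cells 10 and 17 also had the lowest glutamate transporter sums of their side.

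Genes for GABA handling beyond the rule went in both directions. Of 15 listed, 4 were not found, 10 were measured and 8 reached 10 CPM. The mean was higher on the GABA side for 6 of the 10, against 53.1% of all measured genes. A 4-fold higher mean on the GABA side was found for 2 (20%, against 17.3% of all measured genes). On the glutamate side it was found for 1 (10%, against 13.2%). The median difference was 0.39, and with medians over cells it was 0.89.

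The enzyme gene abat, whose product breaks GABA down, was at 301, 217, 151, 534 and 728 CPM against 81.4, 79.8, 240, 45.8 and 52.6 CPM. Its mean was 3.86-fold higher on the GABA side, with overlap only through cell 15. gphnb, a gephyrin gene that scaffolds inhibitory synapses on the receiving side, had the higher mean on the glutamate side, 3.84-fold, of which cells 10-1 and 19-1 (666 and 287 CPM) gave the most.

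Peptides and calcium-binding proteins of interneurons were abundant in some GABA-rich cells and absent from others. Of 45 listed, 13 were not found, 28 were measured and 22 reached 10 CPM. The mean was higher on the GABA side for 20 of the 28 and at least 4-fold higher for 15 (53.6%, against 17.3% of all measured genes). On the glutamate side 4 (14.3%) were at least 4-fold higher. Over all measured genes the mean was higher on the GABA side for 53.1%, and 13.2% were at least 4-fold higher on the glutamate side. No member was apart in either direction. The median difference of 0.56 became 0.15 without cell 18, 0.85 without cells 5 and 6 and 1.01 without cells 13, 22 and 19-1, and it was 0.00 with medians over cells.

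Somatostatin (sst1.1) was at 0, 0.801, 401, 6239 and 5329 CPM on the GABA side, and 2 counts were found on the glutamate side. The related peptide cortistatin (cort) was at 0, 0, 517, 6656 and 1239 CPM, with 1 count on the glutamate side. Proenkephalin (penkb) was at 0, 0.801, 3218, 937 and 1010 CPM, with 0 counts on the glutamate side. The 3 peptides were thus carried together by cells 13, 18 and 22, with penkb highest in cell 13 and sst1.1 and cort highest in cell 18. Cell 5 had 0 counts of all 3 and cell 6 at most 2 of any, at a depth of 2912167 and 2496720 counts.

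Cell 18 held further peptides. npy was at 2179 CPM in this cell, at 6.2 CPM in cell 13 and at 0 in the other 8 cells. trh, galn and cart2 were counted in cell 18 alone, at 450, 249 and 202 CPM. A second proenkephalin gene, penka, was at 512 CPM in cell 18 and 168 CPM in cell 22 and at most 2.80 CPM elsewhere. The side mean of each of these genes is therefore the level of 1 or 2 cells divided by 5, and without cell 18 the log2 ratio of npy fell from 8.78 to 1.35.

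Neurexophilin (nxph1), a secreted ligand of neurexins, had another distribution, at 1125, 739, 0, 205 and 0 CPM, with 0 counts on the glutamate side. It was therefore highest in cells 5 and 6, which lacked the somatostatin group, and shared with that group in cell 18. The nitric oxide synthase gene nos1, which marks a class of GABAergic neurons, was counted in all GABA-rich cells at 56.8 to 171 CPM and at 118 and 71.0 CPM in glutamate-rich cells 10-1 and 17.

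On the glutamate side, parvalbumin 7 (pvalb7) was at 449, 93.5, 197, 2398 and 0 CPM, against 0, 0, 0, 9.17 and 146 CPM on the GABA side. The mean was 20.3-fold higher on the glutamate side, and this depended on cell 17 (log2 ratio -2.54 without it, -4.30 with it) and on cell 22 (-7.58 without it). Neurogranin (nrgna), a calmodulin-binding protein of excitatory forebrain neurons in mammals, was at 4364, 6000, 1215, 7673 and 7724 CPM against 972, 46.1, 3495, 377 and 3542 CPM. It was present in every cell, 3.20-fold higher in the mean on the glutamate side, with overlap through cell 15 and through cells 13 and 22. Tachykinin (tac1) was at 373 and 384 CPM in glutamate-rich cells 10 and 17, the cells that also held lhx9 and bcl11ba, and at 217 and 181 CPM in GABA-rich cells 18 and 22. adcyap1b, a gene of the PACAP peptide, did not follow the sides, at 42.5 to 2322 CPM and 341 to 3400 CPM.

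**Figure D4:**
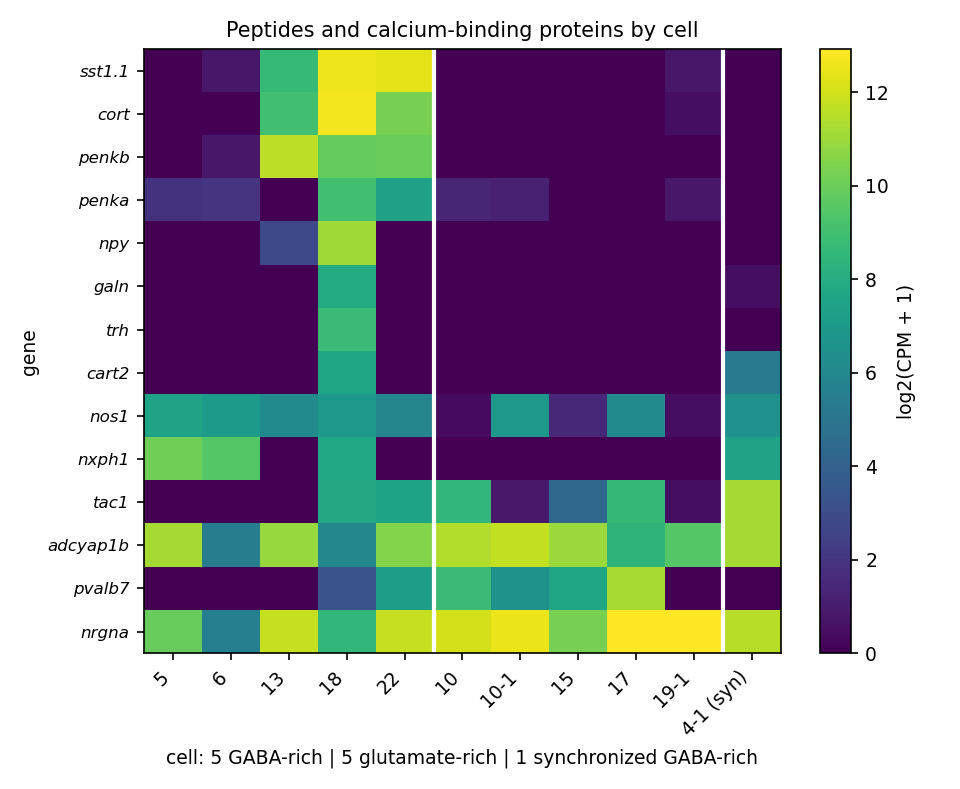
Levels of 14 peptide and calcium-binding protein genes as log2(CPM + 1) (colour) in the 5 GABA-rich cells, the 5 glutamate-rich cells and the GABA-rich synchronized cell 4-1 (columns). sst1.1, cort and penkb are high in cells 13, 18 and 22 and at or below 0.801 CPM in cells 5 and 6, whereas nxph1 is highest in cells 5 and 6 (1125 and 739 CPM).

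Some genes outside these lists also separated all 5 cells of one side from all 5 of the other. On the GABA side the genes outside the lineage factors included the zinc finger gene znf385c, the stem cell and neural factor sox2, and dab2ipb, a regulator of Ras signalling. znf385c was at 206, 211, 44.7, 495 and 84.4 CPM with 1 count on the glutamate side, in cell 10-1. sox2 was at 55.3, 92.1, 210, 104 and 226 CPM with 0 counts on the glutamate side, at least 462-fold higher. dab2ipb was at 176, 129, 519, 187 and 212 CPM against 49.6, 0.414, 0, 0 and 31.2 CPM. sox2 is also in the radial glia list, of whose 17 measured genes it was the 1 member apart, against 0.329% of all measured genes. The list of progenitor and dividing cell genes had 1 of 17 measured members apart with the GABA side higher. Some lists share symbols, so that this is not read as a second result. Radial glia genes summed to 1644 to 3965 CPM on the GABA side and to 861 to 3142 CPM on the glutamate side. Their part in the sox2 level was not tested.

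Several genes of the GABA side were expressed by all 10 cells and differed in level. The splicing regulator nova2 was at 2174, 2009, 1715, 2265 and 2887 CPM against 1459, 804, 1076, 1074 and 755 CPM, with means of 2210 ± 432 CPM (SD, n = 5) and 1034 ± 281 CPM (SD, n = 5), 2.14-fold higher. qkia, an RNA-binding protein of the Quaking family, was at 1070, 755, 383, 380 and 403 CPM against 311, 88.1, 246, 90 and 144 CPM, 3.40-fold higher in the mean. The adhesion gene kirrel1b was at 553, 964, 362, 681 and 251 CPM against 24.8, 80.7, 107, 31.6 and 222 CPM, 6.03-fold higher. These genes were picked for their separation, so that it is no further support for the sides; nova2 and qkia were singled out after their values were seen, since both were well counted in all cells.

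Of the 28 genes (0.314%) apart with the glutamate side higher, 3 kinase genes are given first. No list of signalling genes was counted, so no share stands beside them. The protein kinase C gene prkcab was at 107, 89.7, 74.2, 20.5 and 193 CPM against 4.81, 0, 2.21, 1.41 and 3.86 CPM, 39.3-fold higher in the mean. The Src family kinase fyna was at 179, 347, 560, 111 and 87.9 CPM against 7.90, 24.8, 31.0, 32.5 and 48.5 CPM, 8.88-fold higher. map2k1, the kinase that activates ERK, was at 506, 426, 309, 767 and 296 CPM against 85.8, 9.61, 252, 199 and 25.9 CPM, 4.03-fold higher. All 3 kinases were counted in every glutamate-rich cell, which the choice of genes whose sides do not overlap requires. For map2k1 the highest GABA-rich cell was cell 13 at 252 CPM, not far below the lowest glutamate-rich cell, 19-1, at 296 CPM.

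The ubiquitin ligase gene kcmf1 was at 82.4, 19.4, 430, 60.0 and 152 CPM against at most 1.2 CPM, and the histone methyltransferase gene dot1l was at 463, 17.4, 810, 30.0 and 20.7 CPM against at most 6.35 CPM. In both genes cell 15 was the highest and cell 10-1 the lowest of the side. The contactin gene cntn3a.2 was at 6.68, 13.2, 89.3, 58.4 and 113 CPM against at most 2.21 CPM. The RNA-binding protein gene celf2 and the orphan receptor gene gpr85 were counted in all 10 cells. celf2 was at 2243, 810, 1608, 1293 and 927 CPM against 558, 377, 680, 171 and 639 CPM, 2.84-fold higher, and gpr85 at 660, 576, 535, 524 and 1375 CPM against 79.7, 263, 462, 481 and 239 CPM, 2.41-fold higher; both were also named after their values were seen.

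**Figure D5:**
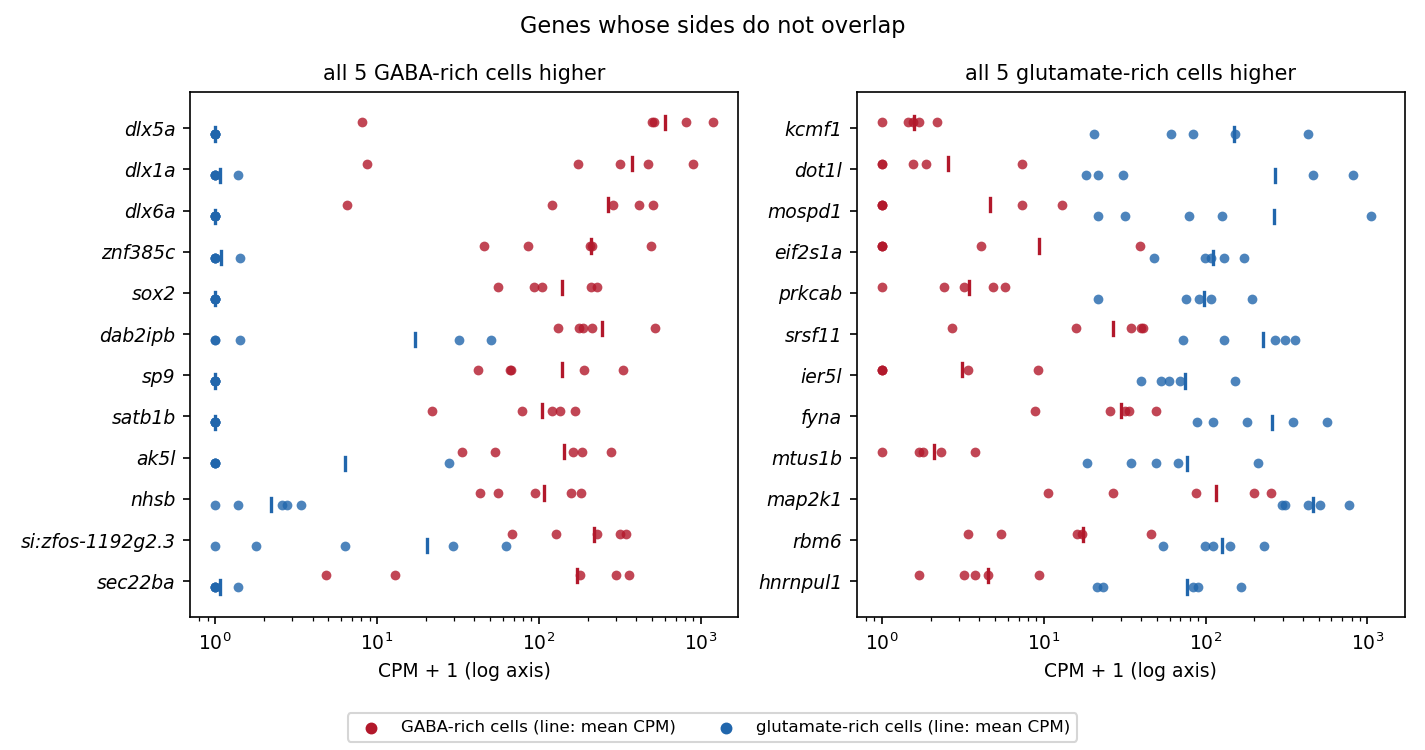
CPM plus 1 (x axes, log scale) of the 12 genes that differed most, by mean log2(CPM + 10), in each direction among the reported genes whose sides do not overlap. Each point is a cell, red for GABA-rich and blue for glutamate-rich, and the vertical line is the mean CPM of the side plus 1; dlx5a, dlx6a, sox2, sp9 and satb1b have all 5 glutamate-rich cells at 0 CPM.

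The receptor lists had a larger share of members past 4-fold on the GABA side than on the glutamate side. All measured genes leaned the same way (17.3% and 13.2%), and so did 18 measured sodium channel genes, with 5 (27.8%) and 2 (11.1%). Potassium and calcium channels were more even. Of 27 measured GABA and glycine receptor genes and their chloride transporters, 15 had the higher mean on the GABA side. At least 4-fold higher were 8 (29.6%) there and 3 (11.1%) on the glutamate side, against 17.3% and 13.2% of all measured genes. Among the 21 with a mean of at least 10 CPM these were 5 and 3, while 17.2% and 13.3% of all genes at that level were past 4-fold. The GABA-A receptor subunit gene gabrb4 was at 0.343, 80.9, 131, 100 and 129 CPM against at most 18.9 CPM, and cell 5 was the exception on its side. gabra5 was at 239, 177, 164, 125 and 108 CPM on the glutamate side, where it was counted in every cell, and at 184, 0.401, 2.21, 0 and 109 CPM on the GABA side. The subunit genes thus differed in direction between members of one receptor family.

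Of 38 measured glutamate receptor genes, 19 had the higher mean on each side, and the median difference was 0.00. A 4-fold higher mean was found for 8 members (21.1%) on the GABA side and 2 (5.26%) on the glutamate side, against 17.3% and 13.2% of all measured genes. Of the 38, 1 was apart, with the GABA side higher, as were 0.329% of all measured genes. This was grin2da, an NMDA receptor subunit, at 236, 382, 94.7, 40.2 and 48.5 CPM against 0, 14.9, 11.5, 27.6 and 25.9 CPM. The AMPA receptor subunit gene gria2a was at 300, 532, 148, 195 and 121 CPM against 60.7, 60.4, 0.884, 122 and 11.6 CPM, with a narrow overlap between cells 22 and 17. Both grin2da and gria2a were highest in cells 5 and 6.

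Receptors for monoamines, acetylcholine, opioids and some other peptides gave 42 measured genes, of which 29 had the higher mean on the GABA side and 15 reached 10 CPM. Over all measured genes the mean was higher on that side for 53.1%. A 4-fold higher mean was found for 13 (31.0%, against 17.3% of all measured genes) on the GABA side and for 2 (4.76%, against 13.2%) on the glutamate side, with 0 members apart and a median difference of 0.10. The nociceptin receptor gene oprl1 was at 12.7, 121, 170, 59.3 and 1.1 CPM against 9.22, 13.6, 6.19, 0 and 0.376 CPM, with overlap through cells 5 and 22. The serotonin receptor gene htr1d was at 401 and 23.7 CPM in cells 18 and 22 and at most 2.90 CPM in the other 8 cells. The adrenergic receptor gene adra2c had the higher mean on the glutamate side, at 113, 335, 444, 0 and 83.4 CPM against 203, 0, 33.6, 0 and 4.41 CPM. Most of these genes were at low levels, and the means of some rested on single cells, as that of htr1d did on cell 18.

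Among 39 measured potassium channel genes, 18 had the higher mean on the GABA side and 21 on the glutamate side, with 8 (20.5%) and 6 (15.4%) at least 4-fold higher. Both shares were near the 17.3% and 13.2% of all measured genes. kcnd2, an A-type potassium channel, was at 194, 279, 149, 284 and 110 CPM against 170, 22.3, 0, 64.7 and 4.51 CPM. Among other channel genes, kcna2b and kcnn1b were lowest on the GABA side in cells 5 and 6, which lacked the somatostatin group. These cells also had the highest sums of red blood cell genes. The division was seen in the same data, and the share of all genes that follow it was not counted. kcna2b was at 0, 0, 126, 52.2 and 50.8 CPM and the calcium-activated kcnn1b at 0.343, 4.41, 79.7, 265 and 65.1 CPM, against 0 and at most 7.95 CPM on the glutamate side. The adhesion gene nrxn3a, a neurexin, was likewise at 6.87, 2.40, 345, 860 and 607 CPM, and of the glutamate-rich cells cell 15 held 134 CPM.

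Calcium channel genes were even between the sides, with 14 of 28 measured genes higher in the mean on each and 4 at least 4-fold higher on each (14.3%). Of all measured genes, 17.3% were at least 4-fold higher on the GABA side and 13.2% on the glutamate side. Within them, the N-type channel gene cacna1bb was at 114, 247, 15.9, 47.3 and 305 CPM against 59.5, 1.24, 0, 0 and 0 CPM, and its log2 ratio of 3.48 became 6.81 without cell 10. The auxiliary subunit genes had opposite directions. cacna2d2a was at 78.3, 0, 23.9, 563 and 89.4 CPM against 1.91, 0, 0, 41.0 and 0 CPM, whereas cacna2d1a was at 0, 0, 196, 0.706 and 0.552 CPM against 46.1, 63.7, 204, 120 and 160 CPM. In cacna2d1a cell 13 was again the GABA-rich cell that overlapped the glutamate side.

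Neuron markers were higher in the mean on the glutamate side for 13 of 18 measured genes and on the GABA side for 5, with a median difference of -0.20. The mean was higher on the GABA side for 53.1% of all measured genes. In each direction 1 member (5.56%) was at least 4-fold apart in the means, against 17.3% of all measured genes on the GABA side and 13.2% on the glutamate side. elavl4, which encodes a neuronal RNA-binding protein of the same family as HuC, was the 1 member at least 4-fold higher on the GABA side. It was at 2272, 3460, 38.1, 800 and 228 CPM on that side and at 621, 4.14, 1.77, 0 and 0.751 CPM on the glutamate side. Its log2 ratio was 3.43 and became 9.0 without cell 10. The growth-associated gene stmn2b was at 490, 495, 118, 549 and 902 CPM on the glutamate side and at 82.8, 54.5, 268, 140 and 8.28 CPM on the GABA side. Cell 15, which had the fewest detected genes, was the glutamate-rich cell within the GABA range.

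Immediate-early genes, which neurons switch on after activity and after handling, were higher in the mean on the GABA side for 19 of 25 measured genes, against 53.1% of all measured genes. The median difference was 0.73, and 4 members (16%, against 17.3% of all measured genes) were at least 4-fold higher. The share past 4-fold on the GABA side was thus near the background. On the glutamate side it was 0 of 25, against 13.2% of all measured genes, and 0 members were apart. npas4a, an activity-dependent transcription factor, was at 6422, 4217, 3340, 1412 and 4845 CPM against 2796, 205, 2978, 1646 and 62.0 CPM. nr4a3 was at 124, 211, 5.75, 50.8 and 106 CPM against 0, 19.4, 1.77, 0.789 and 11.3 CPM. atf3, which is also induced by injury, was at 596, 110, 85.0, 4.23 and 250 CPM against 7.63, 0.414, 0, 0 and 0 CPM, and the sides overlapped only between cells 18 and 10. Glutamate-rich cells 10-1 and 19-1 were lowest for npas4a, and cell 18 was the lowest GABA-rich cell for it. The time between treatment and collection is not given for single cells, and its part was not tested.

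The synchronized group held 1 cell, labelled 4-1, with a GABA sum above its glutamate transporter sum, beside 9 cells with the reverse. The sums of cell 4-1 were 683 and 233 CPM, 2.93-fold apart. All 3 glutamate transporter genes were counted in it, and their sum was above those of synchronized cells 16 and 21 (187 and 165 CPM). The sides and the genes apart were set from values of the non-synchronized cells alone. The cells, the sides and the gene lists were, however, chosen with earlier results of these data known. The values below are therefore no independent check. Cell 4-1 was at 190 CPM for dlx1a, 111 CPM for dlx6a, 34.5 CPM for sp9 and 132 CPM for sox2. Among the 9 glutamate-rich synchronized cells, dlx1a had 0 counts in all, dlx6a was at most 6.50 CPM and sp9 at most 1.39 CPM, while sox2 reached 55.7 CPM. These 4 genes therefore had the same order as between the sides, in 1 cell, for which no spread can be given. They are given first because they had this order, which dlx5a and satb1b, also apart between the sides, did not.

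Other genes of the GABA side were not shared by cell 4-1. dlx5a was at 2.41 CPM in it and at up to 109 CPM in 1 of the 9 other synchronized cells, and satb1b had 0 counts. sst1.1, cort, penkb, npy, meis2a, arxa and zfhx4 also had 0 counts in cell 4-1, whereas nxph1 was at 172 CPM, sox6 at 221 CPM and etv1 at 142 CPM. Like non-synchronized cells 5 and 6, cell 4-1 thus had nxph1 and etv1 and lacked the somatostatin group. It also held red blood cell genes, at a sum of 1774 CPM, as did synchronized cell 5 of the glutamate side at 11306 CPM. Their part was not tested. The tac1 level of cell 4-1, 2297 CPM, stood against 3.77 CPM or less in the 9 others and at most 384 CPM in the non-synchronized cells.

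Over the 50 genes apart with the GABA side higher, cell 4-1 was above all 9 other synchronized cells for 15 (30%), against 13.1% of the 8926 genes, and above their median for 33 (66%), against 49.4%. Over the 28 genes apart with the glutamate side higher, it was below all 9 others for 1 (3.57%), against 5.13%, and below their median for 15 (53.6%), against 40.6%. Among the latter genes, prkcab was at 115 CPM and fyna at 166 CPM in cell 4-1, above the medians of 64.7 and 113 CPM in the 9 others.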

How the data were processed

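The 20 cells were each sequenced as 1 library. The values are the authors' counts, whole numbers without scaling, for 18820 genes. The submitters' processing notes name the build danRer11 and edgeR 3.14.0. The software for alignment and for counting is not given in the sources used here. The deposited table pairs IDs with gene names; 58 IDs had none, 515 had one in common with another ID, and 95.16% of all IDs occur in the reference names.

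CPM was computed with each library's total. Side means are given with the SD over 5 cells, and log2 ratios after 1 CPM was added to each mean. Genes at 0 on one side were set at a floor of 3 counts over its libraries. The study's edgeR comparison was not used, since no fish is named for a cell and a side counts as 1 sample. Cells 10 and 10-1 differed by 205 in chi-square over its degrees of freedom, within the 117 to 362 of the other 44 pairs, and were kept as separate cells.

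The cells, the sides and the 24 gene lists (726 symbols, of which 127 were not found) were chosen with earlier results of these data known. Genes named were the 6 rule genes, members of the lists of GABA handling, GABAergic lineage factors, pallial factors and interneuron peptides, up to 6 members of each other list that differed most in mean log2(CPM + 10), and the 20 genes in each direction that differed most among genes whose sides did not overlap, with a mean of at least 10 CPM and a symbol of their own. Only some of them are described, and a few are not reported here. nova2, qkia, celf2 and gpr85 lie outside the last group of 20 and were chosen after their values were seen.

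Alternatives were TMM and poscounts scaling (edgeR 4.0.16 and DESeq2 1.42.0 in R 4.3.3), totals without mitochondrial genes, medians, summed counts, other pseudocounts and filters, thinning to 1131532 counts in 1 draw, and leaving out cells. Leaving out cells 5, 6, 13, 22 and 19-1 together was chosen after seeing the data. Scripts ran in Python 3.11.15 with pandas 2.3.3 and numpy 2.4.6 and were tested on simulated data.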

Additional observations from a re-analysis of the deposited data

Results flagged for a closer look

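Of 40 sets of 5 values (total counts, detected genes, rule genes and marker sums on each side), 8 had a cell farther from the others than Dixon's 95% critical value of 0.71 for the gap over the range (chance gives about 1 in 20 sets). Of the 8, 5 were sets of rule values, the GABA sum and the gad2 level of cell 17 share the same counts, and 1 rests on 2 counts of slc32a1, so that the number of such sets is not read against chance. Cell 17 had a mitochondrial share of 13.7% against at most 4.84% in the other glutamate-rich cells, and a GABA sum of 59.2 CPM against at most 3.54 CPM. Cell 15 had 5588 detected genes against at least 8256 in the other glutamate-rich cells. The gad2 level of cell 17 was 55.3 CPM against at most 0.414 CPM on its side. For slc17a7a, cell 5 stood apart on the GABA side at 132 CPM against at most 1.33 CPM, and cell 10-1 on the glutamate side at 60.0 CPM against 0. slc32a1 was at 0.751 CPM, 2 counts, in cell 19-1 and at 0 in the other glutamate-rich cells. Microglia and leukocyte genes summed to 1768 CPM in cell 19-1 against at most 106 CPM in the other glutamate-rich cells.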

How the results depend on the processing

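No paired analysis was possible because the sides consist of different cells of 1 group and no result comes from a test. All 10 cells kept their side after thinning and without gad1b, slc32a1 or slc17a7a in the rule; 9 kept it without gad2, 8 without slc17a6a and 9 without slc17a6b. The counts of genes at least 4-fold higher on the GABA and the glutamate side were 749 and 515 with 10 CPM added to the means, and 2837 and 2169 with a mean of at least 1 CPM or with no filter. They were 2319 on the GABA side without cells 10-1 and 19-1. On the glutamate side they were 2001 without cells 13, 22 and 19-1 and 3509 without cells 5, 6, 13, 22 and 19-1. With any 1 cell left out they were 1428 to 1840 and 1099 to 1541. Counts of genes apart increase as a side loses cells. They were 91 and 62 (GABA and glutamate side higher) without the cell whose sums were under 2-fold apart, 243 and 79 without cells 5 and 6, 230 and 210 without cells 13, 22 and 19-1, 144 and 114 without cells 10-1 and 19-1, and 1595 and 822 without cells 5, 6, 13, 22 and 19-1, which leaves cell 18 on the GABA side. With any 1 cell left out they were 67 to 106 and 38 to 107. The median difference of the GABAergic lineage factors was 0.0283 with medians over cells, 1.21 with a pseudocount of 1, 1.08 and 1.55 over members with a mean of at least 1 and 10 CPM, 2.43 without cells 5, 6, 13, 22 and 19-1, and 0.48 to 0.78 with any 1 cell left out. Without the same 5 cells it was -1.60 for the pallial factors, 1.5 for the other GABA genes and 2.22 for the peptides and calcium-binding proteins. With medians over cells these were 0.00, 0.89 and 0.00, and with any 1 cell left out -0.81 to -0.29, 0.21 to 1.01 and 0.15 to 0.84. Of 76 single genes under 22 settings each, 1610 values moved by less than the spread between cells, 61 moved by more, and 1 ratio of at least 4-fold turned in direction: the log2 ratio of bcl11ba was 1.67 with medians over cells. The spread was the larger of the side SDs of log2(CPM + 1). It is wide for genes counted in only some cells of a side, so that the number of values within it is no measure of stability. Below 4-fold, 8 values of 5 genes changed sign. For the rule gene slc17a6b (-0.49 with all cells) the log2 ratio was 0.10 with summed counts and 0.15 without cell 15. For slc17a7a (1.09) it was -3.29 without cell 5, -3.17 without cells 5 and 6 and -4.0 without cells 5, 6, 13, 22 and 19-1. Without these last 5 cells it was 0.56 for tshz1, 0.16 for tac1 and -0.43 for npas4a. The causes were not tested. At 1131532 to 3144155 counts a library, levels of a few counts, as for dlx2a and zfhx4 in cell 5, are at the limit of detection.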
